A study of Mus musculus with 8 samples.

Results

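The 10 genes of cell adhesion described here were Pecam1, Icam1, the integrin alpha subunit genes Itga4, Itga6, Itga9, Itgal and Itgav, the integrin beta subunit genes Itgb1 and Itgb5, and the hyaluronan receptor gene Cd44. The members were the rows of the deposited table whose nearest-gene name equals one of these 10 symbols, which are 215 of 129304 regions and 10 of 18707 symbols. The genes were chosen from results of these data, namely the GrnKO against WT H3K27ac values of their regions, so for them the difference between genotypes is given as a description, and no test of it is used as support. The mark measured was acetylation of histone H3 at lysine 27 (H3K27ac), which lies at active promoters and enhancers, by chromatin immunoprecipitation and sequencing. The nuclei came from frozen hemibrains of C57BL/6 mice aged 2 years and were sorted as positive for PU.1, a transcription factor of myeloid cells, and negative for OLIG2 and NEUN, which mark oligodendrocyte-lineage and neuronal nuclei. One genotype was wild type (WT) and the other was GrnKO, without functional Grn, the gene of the lysosomal and secreted protein progranulin. How the Grn allele was made is not given in the sources used here, and the labels name no transgene, treatment or Cre line. Each genotype had 2 H3K27ac libraries and 2 input libraries of sonicated chromatin, and each library came from nuclei of 2 mice pooled.

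Integrins are receptors of 1 alpha and 1 beta chain that hold cells to the extracellular matrix or to other cells, and they signal through talin, kindlin and focal adhesion proteins. On leukocytes they bind partners such as ICAM-1 and VCAM-1 on endothelium, and PECAM-1 (CD31) at endothelial junctions binds PECAM-1 on the passing leukocyte during transmigration. In the brain, microglia use the same receptors to hold matrix, to steer their processes and to take up debris.

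Values are scaled tags, which are tags per 800 bp region at a library total of 10000000, after a further scaling by trimmed mean of M values (TMM). The H3K27ac libraries held 15491642.5 to 20030832 tags and the inputs 4078179 to 14415969. The share of tags inside the listed regions was 49.4% in WT replicate 1 and 63.3 to 65.7% in the other H3K27ac libraries. The Grn promoter region starting at 102429909 on chromosome 11 held 357 and 300.1 scaled tags in WT and 0 in both GrnKO libraries, where 3 tags would be 1.83 and 1.498 at the authors' scaling, so the libraries matched their labels. Microglial marker genes carried strong acetylation, with a sum over 8 genes of 45713 and 50980 scaled tags in WT and 38378 and 40520 in GrnKO. Of these 8 genes 5 were lower past the threshold and 0 higher as sums (limma, adjusted p under 0.05, as for all calls), where 4.88% of all genes were lower. With the authors' library totals alone the sums overlapped, with 38610 and 52930 in WT and 40902 and 43356 in GrnKO. In sorted pools, fewer nuclei of one kind and less acetylation per nucleus cannot be told apart.

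Of the 215 regions, 23 lay within 1000 bp of a start site, 126 in introns farther away, 63 between genes and 3 elsewhere. Tags passed the filter on low values in 170 regions, and the other 45 had means of 0 to 5.95 scaled tags, with a median of 1.93. A region could pass on the tags of either genotype alone. Neighbouring regions can share tags: 168 remained when overlapping ones were thinned to 1 each. All tests were fitted on the whole table.

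WT H3K27ac was also compared with the WT inputs. The choice of genes did not use the inputs but did use the WT H3K27ac libraries, so this too is a description. Of 141 member regions tested against WT input, 113 were above it and 0 below (limma), where 71.7% of 64894 regions were above, 0.413% below and 72.1% in either direction. The WT inputs held 0 tags in 91.3% and 60.3% of all regions, and a region could pass the filter on its H3K27ac tags alone. Being above input was thus largely set by the filter and is not used as support. The median excess over input was 5.39 on the log2 scale for the members and 4.81 for all regions. All 9 Pecam1 regions tested were above input, as were 5 of 6 for Icam1, 8 of 13 for Itga4, 7 of 10 for Itga6, 20 of 25 for Itga9, 17 of 20 for Itgav, 8 of 10 for Itgb1, 27 of 35 for Itgb5 and 12 of 13 for Cd44. No region of Itgal, the alpha chain of the lymphocyte integrin LFA-1, had enough tags for this test. The inputs of GrnKO and WT were compared in the same way. The shallow inputs left 5 member regions to test, of which 0 differed and 1 had an unadjusted p under 0.05, against 0 of 3052 regions (0.00%) and 481 with an unadjusted p under 0.05. Without GrnKO input replicate 2 the comparison reached 42 member regions, and the median log2 change over 26113 regions was 1.05. The GrnKO input left held 14415969 tags, against 4078179 and 9351991 in the WT inputs. Whether depth has a part in this shift was not tested.

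Levels were compared between genes as the mean per 800 bp region, over all regions of a gene. In WT the order ran from Itgb5, with 161 and 171 scaled tags per region in the replicates, to Itgal, with 8.10 and 4.39. Next came Icam1 with 158 and 157, and Itgb1 with 72.9 and 70.9. Pecam1 (67.2 and 66.1) and Itga9 (57.2 and 70.2) overlapped, and so did Itga6 (46.8 and 47.7) and Itgav (47.9 and 45.4). Cd44 (26.03 and 23.5) and Itga4 (17.2 and 14.2) were lower, without overlap between them. In GrnKO, Pecam1 stood at place 8 of the 10, with 22.9 and 27.1, and its range overlapped those of Cd44 (26.6 and 21.9) and Itga4 (35.0 and 25.2). Itgb5, Icam1 and Itgb1 held places 1, 2 and 3 again, with 157 and 159, 130 and 123, and 59.3 and 58.7.

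**Figure D1:**
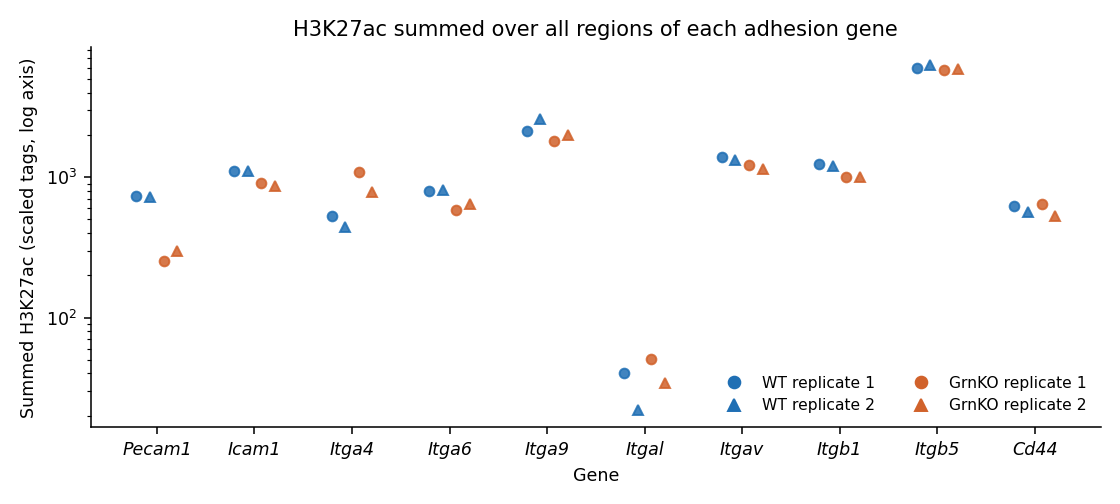
H3K27ac summed over all regions assigned to each of the 10 genes, in scaled tags on a log axis, with 1 point per library (circles replicate 1, triangles replicate 2, blue WT, orange GrnKO). Pecam1 falls from 739 and 727 to 251 and 298, Itga4 lies higher in both GrnKO libraries, and the points of Cd44 overlap. A sum grows with the number of regions a gene has.

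Between genotypes, 4 member regions were higher and 11 lower in GrnKO of 170 tested, where 6.80% of all 80728 tested regions were higher, 2.92% lower and 9.71% either. All 4 higher regions belonged to Itga4, and 5 of the 11 lower ones to Pecam1. Without Pecam1 the counts were 4 higher and 6 lower of 161. Both GrnKO values lay above both WT values in 32 member regions and below them in 70, against 27% and 25.6% of all tested regions and 52.7% on either side. The median log2 change of the member regions was -0.14, and that of all tested regions was -0.0020. With the authors' library totals alone these medians were 0.084 and 0.22. Both GrnKO values then lay above both WT values in 51 member regions and below them in 35, so the balance turned round (28937 and 10751 of all tested regions). On that scale 7 member regions were higher and 6 lower, where 8.15% of all tested regions were higher, 0.412% lower and 8.56% either. Near start sites 1 of 23 member regions was higher and 0 lower, and farther away 3 of 147 were higher and 11 lower. Of all tested regions near start sites 3.57% were higher and 1.61% lower, and of those farther away 7.99% and 3.40%.

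Tags summed per gene gave 1 member higher, Itga4, and 2 lower, Pecam1 and Itga6, while 9.54% of all 15380 genes tested were higher, 4.88% lower and 14.4% either. The log2 change of the sum was negative for 8 of the 10 genes and positive for Itga4 and Itgal. With the authors' library totals alone it was negative for 6 and positive for 4, since Itgb5 and Cd44 changed sign.

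**Figure D2:**
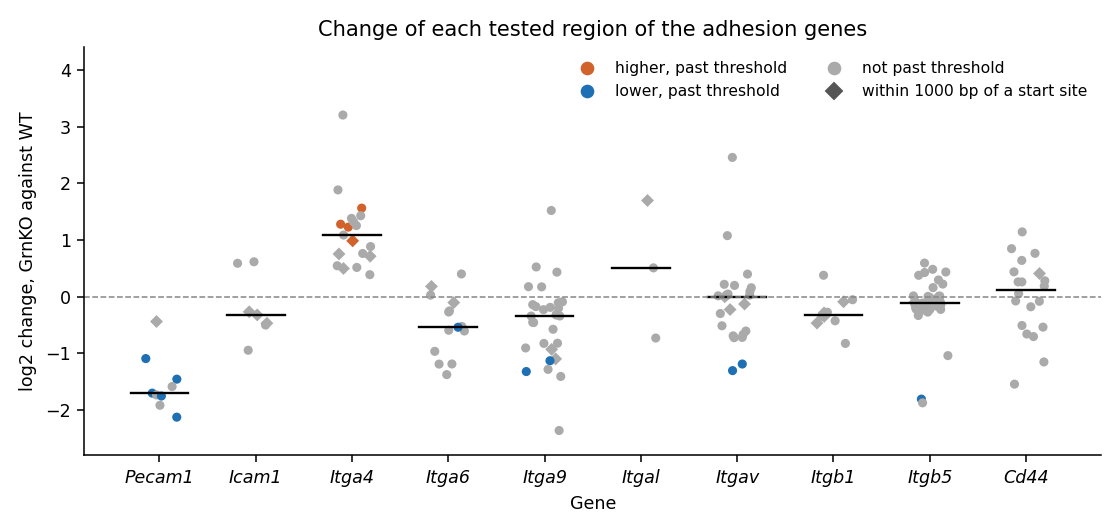
Log2 change of H3K27ac, GrnKO against WT, at each of the 170 tested regions of the 10 genes (diamonds lie within 1000 bp of a start site, bars are medians, colour marks regions past the threshold). All 9 Pecam1 points lie below 0 and all 19 Itga4 points above 0, and the points of the other 8 genes lie on both sides of 0.

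Pecam1 lies on the minus strand of chromosome 11, from 106654213 to 106715281 (GRCm38.p6, RefSeq), and the table assigned 11 regions to it. Their sum was 739 and 727 scaled tags in WT and 251 and 298 in GrnKO, so both GrnKO values lay far below both WT values. The GrnKO mean was 37.5% of the WT mean, with a log2 change of -1.42 (SE 0.14), and 254 of 15380 genes had a more negative one. The negative sign and the call were the same in each alternative run except with regions near start sites alone, where the change was -0.42 and did not pass.

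The strongest Pecam1 acetylation lay deep in the gene, 35 to 41 kb past its start. The intron 12 region from 106674381 to 106675181 held 227 and 208 scaled tags in WT and 66.8 and 92.7 in GrnKO, a log2 change of -1.46 (SE 0.21). The region that overlaps it, from 106675066 to 106675866, held 149.8 and 152 in WT and 63.1 and 78.0 in GrnKO (-1.09, SE 0.22). In both, the WT replicates lay closer together than the GrnKO ones, and the genotypes did not overlap. Another overlapping pair lay about 4 kb nearer the start. Its intron 11 region, from 106679691 to 106680491, held 154 and 168 scaled tags in WT and 49.5 and 48.0 in GrnKO (-1.70, SE 0.23). Its intron 12 region, from 106679143 to 106679943, held 66.1 and 77.0 in WT and 16.4 and 14.8 in GrnKO, which is 21.8% of the WT mean (-2.13, SE 0.34). These 4 regions passed the threshold downward, and 3 of them did so under all 12 alternatives. The one starting at 106675066 missed it with the authors' library totals alone and without GrnKO replicate 1.

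The remaining Pecam1 region past the threshold lay upstream, at -1571 bp from the start, from 106716452 to 106717252. It held 21.9 and 28.0 scaled tags in WT and 7.35 and 6.00 in GrnKO (-1.75, SE 0.54). It passed in 7 of 12 alternatives, and not with the authors' library totals alone, without the filter, or without WT replicate 2 or either GrnKO replicate. The start-site region itself, from 106714774 to 106715574 over the 5′ UTR in exon 1, held 43.0 and 44.8 in WT and 28.6 and 36.2 in GrnKO. Its values were also lower in both GrnKO libraries, but the log2 change of -0.44 (SE 0.33) did not pass the threshold. The regions in intron 2 and intron 13 were weaker, with log2 changes of -1.73, -1.59 and -1.92 that did not pass. Of these, the intron 2 region starting at 106701381 held 41.8 and 17.0 in WT and 6.51 and 8.31 in GrnKO, and it passed in 5 of 12 alternatives. The ratio of tags in the other 10 Pecam1 regions to those in the start-site region was 16.6 and 15.3 in WT and 7.67 and 7.13 in GrnKO. These 10 regions include the one upstream of the gene, and the ratio was lower in both GrnKO libraries.

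**Figure D3:**
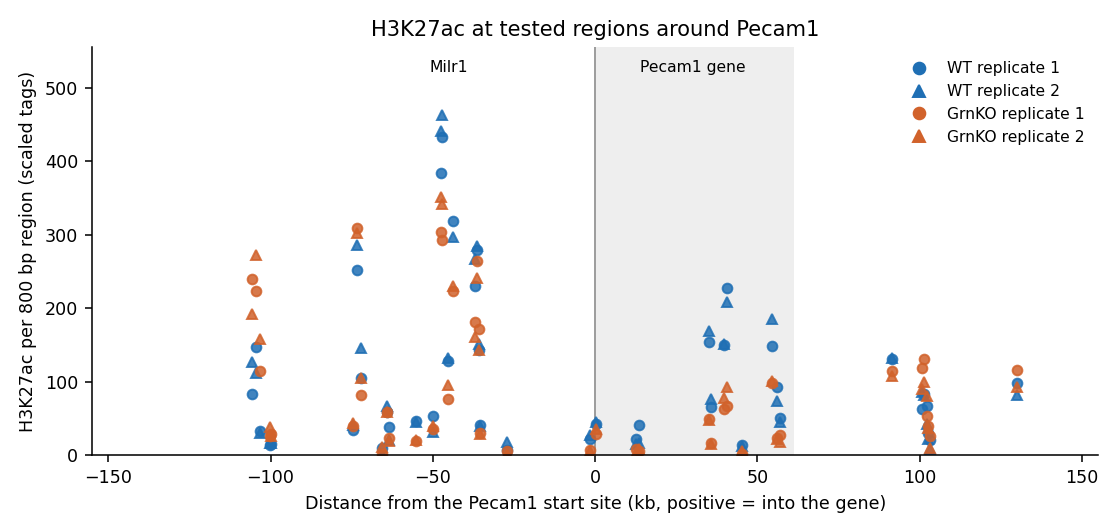
H3K27ac at the tested regions within 150 kb of the Pecam1 start site, against the distance from that site in kb (positive into the gene, grey band the gene), with 1 point per library. The regions at 35 to 41 kb reach 227 scaled tags in WT and stay at or below 92.7 in GrnKO, while the Milr1 regions upstream reach 462 in WT and 352 in GrnKO.

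The table gives a region to the gene with the nearest start site, so the last part of the Pecam1 gene was listed under Tex2, a gene of lipid transfer between membranes. Of 3 tested Tex2 regions inside the Pecam1 gene, 2 were lower past the threshold. The one from 106659001 to 106659801 held 92.7 and 74.1 scaled tags in WT and 23.8 and 22.6 in GrnKO (-1.79, SE 0.31). The one from 106660475 to 106661275 held 148 and 185 in WT and 98.1 and 101 in GrnKO (-0.73, SE 0.20). Within 150 kb of the Pecam1 start, 32 tested regions were assigned to other genes, with 3 higher and 5 lower, which is 9.38% and 15.6%, against 6.80% and 2.92% of all tested regions. The 3 higher ones were assigned to Cep95, about 103 to 106 kb upstream. Besides Tex2, the lower ones were assigned to Milr1, a mast cell immunoglobulin-like receptor (2 regions, -0.54 and -0.50), and Polg2, the accessory subunit of the mitochondrial polymerase (1 region, -1.15). Pecam1 lies 4.22 Mb from Grn on chromosome 11. Of 799 tested regions within 5 Mb of Grn, without those of Grn and Pecam1, 45 were higher (5.63%, against 6.80% in the whole table) and 32 lower (4.01%, against 2.92%). Both GrnKO values lay below both WT values in 29.5% of them, against 25.6% in the whole table. Whether DNA linked to the Grn allele has a part in the Pecam1 values was not tested.

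PECAM-1 also marks endothelium, so endothelial markers were read beside it. The table assigns no region to Tek, Tie1 and Slco1a4. The sum over the 12 listed genes was 1738 and 1844 scaled tags in WT and 2196 and 2395 in GrnKO. Most of that difference lay in Flt1, a VEGF receptor gene, with 483 and 424 in WT and 890.1 and 906 in GrnKO, and the median log2 change of the 7 genes tested was -0.03. Flt1 was higher past the threshold and Emcn, the endomucin gene, was lower. Cldn5, of the tight junctions of brain endothelium, summed to 20.6 and 22.2 in WT and 23.2 and 24.5 in GrnKO. Markers of T and NK cells summed to 199 and 170 in WT and 158 and 156 in GrnKO, and those of monocytes and neutrophils to 585 and 593 against 488 and 392. With the authors' library totals alone both of these lists overlapped between genotypes, and S100a8, the 1 gene of either list past the threshold, was higher in GrnKO. B cell markers summed to 339 and 309 in WT and 712 and 591 in GrnKO, with the difference in Ms4a1 (214 and 197 against 618 and 468). Oligodendrocyte markers summed to 1958 and 2089 in WT and 2575 and 2715 in GrnKO, where Mbp was higher and Mog lower past the threshold. Border macrophage markers summed to 1066 and 1064 against 1163 and 1133, with F13a1 higher past the threshold, and pericyte and smooth muscle markers to 167 and 127 against 176 and 157. Neuronal markers summed to 214 and 271 in WT against 181 and 152 in GrnKO, with Syt1 lower past the threshold, and astrocyte markers to 3432 and 3431 against 3262 and 3304. Both of these lists also overlapped with the authors' library totals alone. What part other cells have in the adhesion gene values was not tested.

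By their pattern over the 4 libraries, centred per gene on the log2 scale, the 5 genes nearest to Pecam1 by Euclidean distance were Gm5434 (distance 0.10), 4930447J18Rik (0.11), Wisp1 (0.12), Rab11fip4 (0.15) and Mir1955 (0.15). Their sums were lower than that of Pecam1, as for Wisp1, a secreted protein of the CCN family, with 87.9 and 94.3 scaled tags in WT and 30.1 and 33.8 in GrnKO. Rab11fip4 (17.2 and 18.8 in WT, 5.17 and 6.07 in GrnKO) and Mir1955 (29.0 and 27.2 in WT, 10.3 and 11.4 in GrnKO) were weak and did not pass the threshold.

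Icam1, on chromosome 9, encodes the ligand of the integrins LFA-1 and Mac-1. Its start is among the most acetylated places of the 10 genes, and 66.8% of its WT tags lay within 1000 bp of a start site. The 250 bases before its start (GRCm38.p6, RefSeq, plus strand, chr9:21015690-21015939) are shown because they lie in that acetylated stretch, and capitals mark a match to GGAAATTCC, an NF-kB motif whose search was added after the sequences were seen:
Icam1: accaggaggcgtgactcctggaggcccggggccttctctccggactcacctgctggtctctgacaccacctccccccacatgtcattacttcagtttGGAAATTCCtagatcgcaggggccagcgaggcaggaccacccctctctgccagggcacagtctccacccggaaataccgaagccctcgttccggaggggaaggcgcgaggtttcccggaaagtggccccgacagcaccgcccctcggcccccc
The match lies 153 to 145 bases before the start, and 0.286% of 32851 promoters of the same length hold these letters on either strand. The promoter region from 21014998 to 21015798 held 321 and 310.1 scaled tags in WT and 252 and 252 in GrnKO (-0.32, SE 0.14). The region beside it, from 21014382 to 21015182, held 277 and 236 in WT and 173 and 189 in GrnKO (-0.50, SE 0.16). The intron 1 region starting at 21017223 held 57.5 and 86.2 in WT and 35.9 and 36.2 in GrnKO (-0.95, SE 0.30). In all 3 both GrnKO values lay below both WT values, and none of the 7 Icam1 regions passed the threshold. The sum was 1103 and 1099.9 in WT and 912 and 864 in GrnKO, a log2 change of -0.31 (SE 0.11) that did not pass either, though it passed in 2 of 15 alternatives.

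Itga4, on chromosome 2, encodes the alpha 4 chain of VLA-4, the leukocyte receptor of VCAM-1 and fibronectin. It was the one member with more acetylation in GrnKO past the threshold. The 250 bases before its start (GRCm38.p6, RefSeq, plus strand, chr2:79255176-79255425) are shown because the most acetylated Itga4 region lies over them, and capitals mark the match to the RUNX motif TGTGGT, here on the minus strand:
Itga4: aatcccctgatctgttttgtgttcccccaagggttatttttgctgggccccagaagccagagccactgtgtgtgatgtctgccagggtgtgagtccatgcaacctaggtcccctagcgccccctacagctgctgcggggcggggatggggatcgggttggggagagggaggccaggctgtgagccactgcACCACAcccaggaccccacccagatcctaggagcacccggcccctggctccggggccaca
The match lies 60 to 55 bases before the start, and 14.0% of 32851 promoters of this length hold the motif on either strand. No match was found in either printed sequence to AGGAAGT (an ETS core of PU.1), TGANTCA (AP-1), CACGTG (E-box) or the paired sites of IRF factors. Across the 7 members with a promoter sequence, of which the Itga9 entry lies at the start of its shorter transcript, the ETS core was in 1, that of Itgav, against 7.69% of all promoters.

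The table assigned 31 regions to Itga4, and their sum was 532 and 441 scaled tags in WT and 1086 and 780 in GrnKO. Both GrnKO values lay above both WT values, and the GrnKO replicates lay farther apart than the WT ones. The GrnKO mean was 192% of the WT mean, with a log2 change of 0.93 (SE 0.16), and 1231 of 15380 genes had a larger one. The sum passed in all 15 alternatives, with changes of 0.69 to 1.17. All 19 tested regions had a positive change, from 0.39 to 3.21, and in 16 of them both GrnKO values lay above both WT values, as in 27% of all tested regions. Regions could pass the filter on their GrnKO tags alone, as did the one starting at 79193598, so this count is a description only. The tested regions spanned from 168 kb before the start to 4 kb into the gene.

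The most acetylated Itga4 region lay at the start, from 79255137 to 79255937 over the 5′ UTR in exon 1. It held 66.9 and 42.2 scaled tags in WT and 127 and 63.9 in GrnKO, so the genotypes overlapped, and its change of 0.75 (SE 0.32) did not pass. The intron 1 region beside it, from 79255702 to 79256502, held 43.4 and 49.2 in WT and 113 and 75.4 in GrnKO (0.99, SE 0.27) and passed. The other 3 regions past the threshold lay between genes upstream. The farthest, at -123087 bp from the start, from 79131939 to 79132739, held 39.5 and 30.4 in WT and 84.3 and 80.7 in GrnKO (1.23, SE 0.29). The next, from 79180530 to 79181330, held 17.2 and 39.8 in WT and 73.0 and 58.1 in GrnKO (1.28, SE 0.37). The nearest of the 3, from 79205976 to 79206776, held 25.03 and 13.6 in WT and 70.1 and 45.7 in GrnKO (1.56, SE 0.39). In all 4 regions the genotypes did not overlap, and without GrnKO replicate 1 none of the 4 passed. The region starting at 79131939 also did not pass without GrnKO replicate 2. The one starting at 79180530 passed in 7 of 12 alternatives, and not by edgeR or DESeq2 on recovered reads or without WT replicate 1 or GrnKO replicate 2. Its inputs, at the authors' scaling, held 0 and 0 in WT and 6.94 and 39.8 in GrnKO. That starting at 79205976 was not above input in WT past the threshold (limma adjusted p = 0.182). The largest change, 3.21 (SE 1.11), was at a weak region from 79193598 to 79194398 and did not pass. It held 0 and 0.524 in WT and 13.3 and 8.07 in GrnKO, while the inputs of WT held 66.2 and 6.95 and those of GrnKO 2.08 and 42.9.

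**Figure D4:**
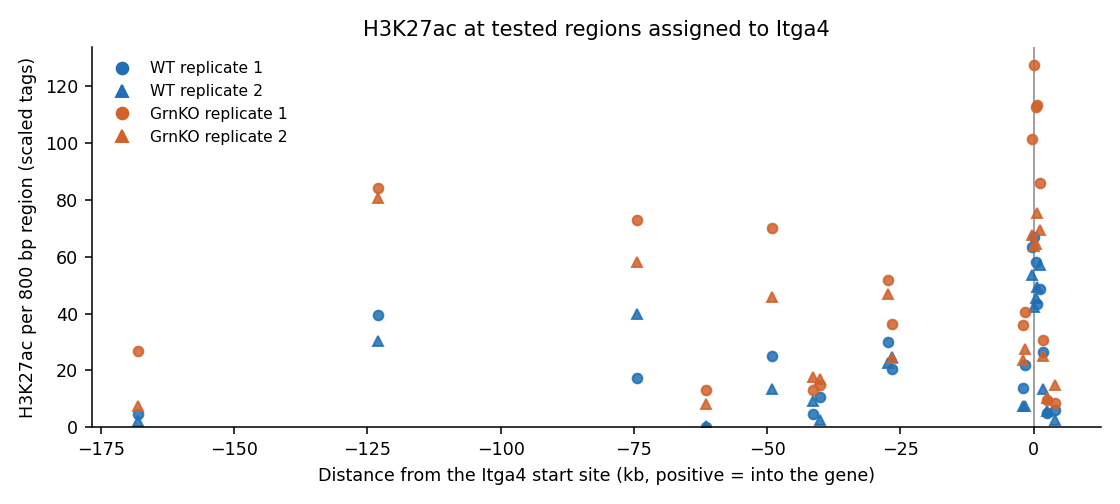
H3K27ac at the 19 tested regions assigned to Itga4, against the distance from its start site in kb (positive into the gene), with 1 point per library. In 16 of the 19 regions both orange GrnKO points lie above both blue WT points, and the highest point, 127 scaled tags in GrnKO replicate 1, is at the start-site region, where the genotypes overlap.

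Itga6, on chromosome 2, encodes the alpha 6 chain of laminin receptors. Its sum was 795 and 812 scaled tags in WT and 582 and 641 in GrnKO, which do not overlap, with a log2 change of -0.39 (SE 0.12) past the threshold. The call was lost with the authors' library totals alone, without the filter and without either GrnKO replicate, and regions near start sites alone gave 0.019. Its strongest region, in intron 1 from 71813831 to 71814631, held 320 and 295 in WT and 199.97 and 223 in GrnKO (-0.54, SE 0.15) and was the 1 of 14 tested regions that passed. Like the sum, it did not pass with the authors' library totals alone, without the filter or without either GrnKO replicate. The strongest region near the start, from 71787019 to 71787819, held 105 and 103 in WT and 107 and 87.4 in GrnKO, which overlap. The largest change, -1.38 (SE 0.60), was at a weak region at -5851 bp and did not pass. It held 23.9 and 21.7 in WT and 3.96 and 15.9 in GrnKO, and its change ran from -2.24 to -0.47 over 12 alternatives.

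Itga9, on chromosome 9, encodes the alpha 9 chain, which binds tenascin-C and osteopontin. Its sum was 2115 and 2599 scaled tags in WT and 1800 and 1989 in GrnKO, lower in both GrnKO libraries (-0.31, SE 0.11), but did not pass. The sum passed in 3 of 15 alternatives, over which its change ran from -1.02 to -0.12. Of its 29 tested regions 2 passed, both lower. The intron 9 region from 118669463 to 118670263 held 102 and 107 in WT and 40.2 and 55.4 in GrnKO (-1.13, SE 0.26). The region from 118747580 to 118748380, in intron 1 of the shorter transcript, held 74.7 and 71.8 in WT and 29.98 and 27.5 in GrnKO (-1.32, SE 0.30). In both, the genotypes did not overlap, and neither passed without GrnKO replicate 1. The first also did not pass with the authors' library totals alone, nor the second without GrnKO replicate 2. The strongest Itga9 region, in intron 11 from 118674030 to 118674830, held 266 and 221 in WT and 227 and 228 in GrnKO, which overlap. It lies less than 5 kb from the lower intron 9 region. The start-site region of the long transcript, from 118606854 to 118607654, held 48.1 and 47.7 in WT and 18.95 and 25.1 in GrnKO (-1.10, SE 0.35) and did not pass. The largest change, -2.36 (SE 1.06), was at a weak intron 1 region with 11.3 and 7.07 in WT and 0 and 2.77 in GrnKO.

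Itgav, on chromosome 2, encodes the alpha v chain of vitronectin receptors, which pairs with the beta 5 chain among others. Its sum was 1389 and 1317 scaled tags in WT and 1218 and 1137 in GrnKO (-0.20, SE 0.11) and did not pass. The promoter region from 83724031 to 83724831 held 185 and 168 in WT and 167 and 154 in GrnKO (-0.13, SE 0.18). A pair of neighbouring intron 2 regions was lower past the threshold. The first, from 83740205 to 83741005, held 92.7 and 70.2 in WT and 32.2 and 37.6 in GrnKO (-1.19, SE 0.29). The second, from 83741986 to 83742786, held 115 and 119 in WT and 53.7 and 40.4 in GrnKO (-1.31, SE 0.25). The GrnKO means were 42.9% and 40.4% of the WT means, and the genotypes did not overlap. Without GrnKO replicate 2 neither passed, and the first also missed the threshold without GrnKO replicate 1 and with the authors' library totals alone. The strongest region away from the start, in intron 1 from 83729179 to 83729979, held 82.5 and 89.8 in WT and 82.0 and 96.4 in GrnKO, which overlap. The largest change, 2.46 (SE 1.02), was at a weak region upstream with 0 and 3.40 in WT and 14.4 and 7.61 in GrnKO, where WT input replicate 2 held 39.6.

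Itgal, on chromosome 7, had the lowest acetylation of the 10 genes, with a sum of 40.5 and 21.9 scaled tags in WT and 50.8 and 34.3 in GrnKO, which overlap. Its promoter region, from 127295877 to 127296677, held 7.43 and 4.19 in WT and 23.8 and 18.0 in GrnKO. Both GrnKO values were higher, and the log2 change of 1.71 (SE 0.59) did not pass, though it passed with the authors' library totals alone (1.92) and without WT replicate 1 (2.08). Its strongest region elsewhere, at -5864 bp, held 18.8 and 7.07 in WT and 9.33 and 4.61 in GrnKO, which overlap.

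Itgb1, on chromosome 8, encodes the beta 1 chain that pairs with the alpha 4, alpha 6, alpha 9 and alpha v chains. Its sum was 1240 and 1206 scaled tags in WT and 1009 and 997 in GrnKO, which do not overlap, and the log2 change of -0.29 (SE 0.11) did not pass in any alternative. The start-site region from 128685356 to 128686156 held 160 and 116 in WT and 115 and 99.4 in GrnKO (-0.35, SE 0.22). The strongest region lay upstream at -30984 bp, from 128654270 to 128655070, and held 302 and 321 in WT and 229 and 233 in GrnKO (-0.43, SE 0.15). None of the 10 tested Itgb1 regions passed, and in 6 of them both GrnKO values were below both WT values, as in 25.6% of all tested regions. The largest change, -0.83 (SE 0.61), was at a weak region with 16.0 and 11.8 in WT and 5.94 and 8.997 in GrnKO.

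Itgb5, on chromosome 16, encodes the beta 5 chain of a vitronectin receptor used in uptake of apoptotic cells, and it had the highest acetylation of the 10 genes. Its sum was 5965 and 6322 scaled tags in WT and 5803 and 5874 in GrnKO (-0.07, SE 0.08), and the change turned to 0.12 with the authors' library totals alone. The strongest region, in intron 5 from 33893953 to 33894753, held 660.1 and 614 in WT and 529.8 and 547 in GrnKO (-0.24, SE 0.11). The start-site region from 33829787 to 33830587 held 414 and 459 in WT and 399.9 and 421 in GrnKO, which overlap. Of 36 tested regions 1 passed, in intron 2 from 33864478 to 33865278, with 35.6 and 33.0 in WT and 5.94 and 13.6 in GrnKO (-1.81, SE 0.49). It did not pass without GrnKO replicate 1 or without the filter. The region overlapping it, from 33864944 to 33865744, held 16.0 and 20.95 in WT and 3.96 and 4.61 in GrnKO (-1.87, SE 0.64) and did not pass.

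Cd44, on chromosome 2, encodes a receptor of hyaluronan that also binds osteopontin. Its sum was 625 and 565 scaled tags in WT and 638 and 526 in GrnKO, which overlap, and none of its 20 tested regions passed. The promoter region from 102901175 to 102901975 was weak, with 14.1 and 28.8 in WT and 22.6 and 32.8 in GrnKO. Its strongest region, upstream at -42655 bp, from 102943920 to 102944720, held 130 and 145 in WT and 154 and 95.5 in GrnKO, which overlap. The largest change, -1.54 (SE 0.69), was at a weak region farther upstream with 14.1 and 13.6 in WT and 4.53 and 3.69 in GrnKO.

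Other adhesion genes were read from 4 lists of 85 genes in all. The table assigns regions to 71, and 63 were tested as sums, with 5 higher and 3 lower, where 9.54% of all genes tested were higher, 4.88% lower and 14.4% either, so the counts lie near the background. Their median log2 change was -0.06, against -0.0099 for all genes. Of 15 other integrin genes tested, 1 was higher and 0 lower. That was Itga5, the alpha chain of the fibronectin receptor, with 493 and 402 scaled tags in WT and 767 and 899 in GrnKO (0.90, SE 0.14, limma adjusted p = 0.000539). Among the beta 2 integrin genes of microglia, Itgam summed to 1494 and 1551 in WT and 1311 and 1277 in GrnKO (-0.23, SE 0.10), Itgax to 618 and 650.01 against 778 and 763 (0.28, SE 0.12), and Itgb2 to 1729 and 1993 against 1919 and 1929 (0.05, SE 0.10). None of these 3 passed.

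Of 16 other adhesion receptors of leukocyte and endothelial contact, 1 was higher and 3 lower. Mcam, an endothelial and leukocyte adhesion molecule (CD146), was higher, with 212 and 209.5 in WT and 393 and 429 in GrnKO (0.96, SE 0.16, limma adjusted p = 0.000751). Selplg, the ligand of P-selectin, was lower, with 5627 and 6579 in WT and 3920 and 4527 in GrnKO (-0.53, SE 0.10, limma adjusted p = 0.00137). Jam2 and F11r, of the junctional adhesion molecule family, were lower as well. Jam2 held 360.4 and 378 in WT and 199.7 and 226 in GrnKO (-0.79, SE 0.16, limma adjusted p = 0.00374). F11r held 3987 and 4456 in WT and 3255 and 3444 in GrnKO (-0.33, SE 0.09, limma adjusted p = 0.0189). With the authors' library totals alone, none of these 3 lower genes passed, and none passed without GrnKO replicate 1.

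Of 23 integrin and Cd44 adaptor genes 3 were higher and 0 lower. Ezr, the gene of ezrin, which ties membrane receptors such as CD44 to actin, held 415 and 239 in WT and 553 and 547 in GrnKO (0.80, SE 0.20, limma adjusted p = 0.0139). The Ezr change was 0.43 without WT replicate 2 and 1.203 without WT replicate 1, both past the threshold. With regions near start sites alone it was 0.13 and did not pass, nor did Mcam, Jam2 and F11r pass there. Over all 15 alternatives, that one included, the change of Mcam ran from 0.90 to 1.84 and that of Jam2 from -0.88 to -0.61. Both thus lost the call without a small change. That of F11r ran from -0.76 to -0.14. The other higher adaptor genes were Tns3, a tensin gene (0.27, SE 0.07), and Ptk2b, the gene of the focal adhesion kinase relative PYK2 (0.30, SE 0.09). Of 9 genes of matrix ligands and hyaluronan synthases 0 passed in either direction by limma. The table assigns no region to Vtn, the vitronectin gene, and Fn1, the fibronectin gene, held at most 2.10 scaled tags in any library.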

How the data were processed

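The table used here gives 8 libraries over 129304 regions of 800 bp that, per the file headers, are reproducible ATAC-seq peaks. The deposited unit is a signal: per the file headers, the tags in a region are stated relative to a library total of 10000000, set by the authors. The submitters' processing notes name Bowtie2, HOMER and DESeq2 and the build mm10. Duplicate handling is not given in the sources used here. Multiplying by the library totals gave whole read ends, at 2 ends per tag, for 100% of values in every library, within 0.0041 to 0.0200 read ends by library.

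Scaled tags were divided by edgeR TMM factors (0.825, 1.04, 1.08 and 1.08 for regions) and tested with limma 3.58.1 (lmFit, eBayes with trend, R 4.3.3) on log2(value + 1), genotype as the only term. Regions passed filterByExpr with a minimum of 10 tags, p-values were adjusted by Benjamini-Hochberg over all regions or genes tested, and the threshold was 0.05. Comparisons with input used no TMM. Tags were also summed over all regions of a symbol. Log2 changes understate those of low values. Count tests (edgeR 4.0.16, DESeq2 1.42.0) on the recovered reads were alternatives, and the limma step was tested on simulated data. The 3-tag floor covers counting error only.

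The members and lists were chosen with earlier results of these data known. The regions named are all tested Pecam1 regions, and for each other gene its strongest region within 1000 bp of a start site, its strongest elsewhere and its largest change. Other regions past the threshold were named after their values were seen, as were Itgam, Itgax, Itgb2, Fn1, Vtn, Tns3 and Ptk2b. Of other adhesion genes, the 3 with the smallest p in each direction are named. Promoter sequences are from RefSeq (GRCm38.p6) and matched 7 of the 10 genes.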

Additional observations from a re-analysis of the deposited data

How the results depend on the processing

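Member regions higher in GrnKO numbered 4, against 7 with the authors' library totals alone and 0 to 13 with one replicate left out. Those lower numbered 11, against 6 with the authors' library totals alone and 4 to 23 with one replicate left out. Over all regions, leaving one out moved the higher calls between 1810 and 9534 and the lower between 361 and 4611, so nothing particular to the members is read from these moves. Members lower as sums numbered 2, against 1 with the authors' library totals alone or without the filter (regions at 0 in every library were still dropped), 0 with regions within 1000 bp of a start site, and 1 to 3 with one replicate left out. Other adhesion genes higher numbered 5, against 3 with regions near start sites and 3 to 7 with one replicate left out. Those lower numbered 3, against 0 with the authors' library totals alone, 7 with DESeq2 on recovered reads, 5 with non-overlapping regions, 1 near start sites and 0 to 8 with one replicate left out. Input regions differing numbered 0, and 0 to 14 with one replicate left out. The Itga6 sum changed from -0.39 to 0.019 with regions near start sites. The cause of these moves was not tested, and where 1 library remains in a genotype it is assumed to vary like the others.

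Same-numbered libraries come from different mice, and their deviations from the group means had a correlation of 0.034 over 80728 regions, so the numbers do not pair them. With a replicate block, member regions higher numbered 7, members lower as sums 4 and other adhesion genes lower 7. Calls over all features rose under it too, to 7403 higher and 3988 lower regions (5488 and 2354 without it) and 1841 higher and 1136 lower gene sums (1468 and 750). The shallow inputs limit the comparison of inputs to few regions, and with 2 libraries per genotype a p that misses the threshold does not show that values are equal.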
